A study of Homo sapiens with 4 samples.

Results

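Transcription of SREBF2, the gene of the transcription factor SREBP2, and of 7 of its targets in cholesterol synthesis (INSIG1, HMGCS1, MVD, IDI1, FDFT1, SQLE and SC5D) was read from 4 TT-seq libraries. The 8 genes were taken by GENCODE symbol from a table of 60708 genes, and all 8 passed the filter on low counts that left 23321 genes. The cell line was HEK293, derived from human embryonic kidney, with an RPB1 degron, which lets auxin trigger the destruction of endogenous RPB1, the largest subunit of RNA polymerase II. They were transiently transfected with a plasmid for RPB1 carrying either a 52x wild-type CTD (52x WT) or a 52x CTD with T4A, alanine in place of threonine 4, in every repeat (52x T4A). The CTD is the repetitive tail of RPB1 whose phosphorylation recruits factors to the polymerase. In both conditions auxin was added 48 h after transfection and kept for 48 h, and RNA made in a 20 min pulse of 4-thiouridine was then captured and sequenced. Each condition had 2 libraries, so the comparison asks whether synthesis of these RNAs differed between cells that carried the T4A and the wild-type polymerase. The design has no library without auxin and no untransfected library, and each cell pool could hold cells that took up no plasmid.

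SREBP2 is made as a membrane protein of the endoplasmic reticulum, where SCAP binds it and, when sterols are plentiful, INSIG proteins retain both. When sterols fall, SCAP carries SREBP2 to the Golgi, the site-1 and site-2 proteases cut it, and the released fragment enters the nucleus and binds sterol regulatory elements (SREs) in promoters. Its targets include nearly every enzyme from acetyl-CoA to cholesterol, INSIG1 and SREBF2 itself, so that the pathway responds to the sterol content of the cell within hours.

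RefSeq promoter windows (250 bases before to 50 after a start, GRCh38.p14) were given for 6 of the 8 genes and were searched on both strands for the SRE (TCACNCCAC), the E-box (CACGTG), which the basic helix-loop-helix region of SREBPs can also bind, and CCAAT, the site of NF-Y, a partner of SREBPs. Of 35116 windows in the genome, 1.13% held the SRE, 7.26% the E-box and 34.6% CCAAT. Counted over 27305 genes, some with several windows, the shares were 1.39%, 8.77% and 39.7%. The SRE letters were found in the SREBF2 window, 133 bases before its start, and the E-box in those of INSIG1 and SC5D. CCAAT was found in at least 1 window of each of the 6 genes, in most cases as its reverse complement ATTGG. The 5 stretches below carry the match in capitals, each read 5′ to 3′ on the strand of its gene. They are the SRE of the regulator gene, both E-boxes, and 1 CCAAT match each of HMGCS1 and IDI1. These 2 genes were picked because they had the largest positive differences described further on, and their other CCAAT matches are not shown. The CCAAT matches of SC5D and of SREBF2, INSIG1 and MVD, whose differences were negative, are not shown either. A link of CCAAT to the differences was not tested. The windows follow RefSeq starts. The INSIG1 and IDI1 stretches lie inside, and the HMGCS1 stretch partly inside, the gene spans given further on.
SREBF2, SRE, chr22:41832962-41832991, plus strand: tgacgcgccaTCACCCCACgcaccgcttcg
INSIG1, E-box, chr7:155297811-155297840, plus strand: gccgggcaggctCACGTGatgcgggccccg
SC5D, E-box, chr11:121292628-121292657, plus strand: gcgcgcggcgccCACGTGaccgcggagagc
HMGCS1, CCAAT reversed, chr5:43313495-43313524, minus strand: ctaccggccgcgATTGGctgtgggagccac
IDI1, CCAAT reversed, chr10:1048956-1048985, minus strand: ctggcgcgagcgATTGGctgcgcggcccgg
A match of letters is a description of the window and not evidence of binding, and a window without the letters leaves other forms of the site unsearched.

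The libraries held between 33188536 and 45605027 counts. T4A replicate 1 stood apart: its log2 CPM (each library's counts scaled to a common total) correlated at 0.979 with T4A replicate 2 and at 0.974 to 0.975 with the WT libraries, while T4A replicate 2 correlated at 0.988 to 0.989 with the WT libraries. POLR2A, the gene of RPB1, took 8720 to 9640 CPM in WT and 7492 to 8083 CPM in T4A. Plasmid and endogenous RNA were not separated, so that level checks no label. Of 7 kidney and HEK293 markers, NEFL, LHX1 and PAX2 were present in every library, PAX8 had 8 to 34 counts, and NEFM and INA had at most 6. The list summed to between 77.6 and 104.8 CPM of the library total. Summed markers of blood cells, hepatocytes, endothelium, keratinocytes and muscle were each at or below 8.57 CPM. With bulk libraries, fewer cells that transcribe a gene and less RNA made per cell cannot be told apart, and a change common to all genes is removed by the scaling.

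None of the 8 genes passed the call (Benjamini-Hochberg adjusted p below 0.05 and a fold above 1.5 in edgeR's quasi-likelihood test), against 0.00429% of all genes tested, which is 1 gene, CHST8. HMGCS1 had the largest difference of the 8, at 1.41-fold the WT level in T4A, and IDI1 came next at 1.19-fold. These were the only members with an unadjusted p below 0.05, so 2 of 8 were higher and 0 of 8 lower by that measure, against 7.45% of all genes tested higher and 8.02% lower. The other 6 genes lay between 0.864 and 1.07 times the WT level. Both T4A libraries lay above both WT libraries for HMGCS1, IDI1, FDFT1 and SQLE, and below them for SREBF2 and INSIG1, while the groups overlapped for MVD and SC5D. The groups thus did not overlap for 6 of the 8. For all genes tested the share was 24.8% above, 24.7% below and 49.5% in either direction. The labels do not say whether the 2 libraries of a condition came from separate cultures, so the p-values measure the spread between these libraries, which may be technical.

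**Figure D1:**
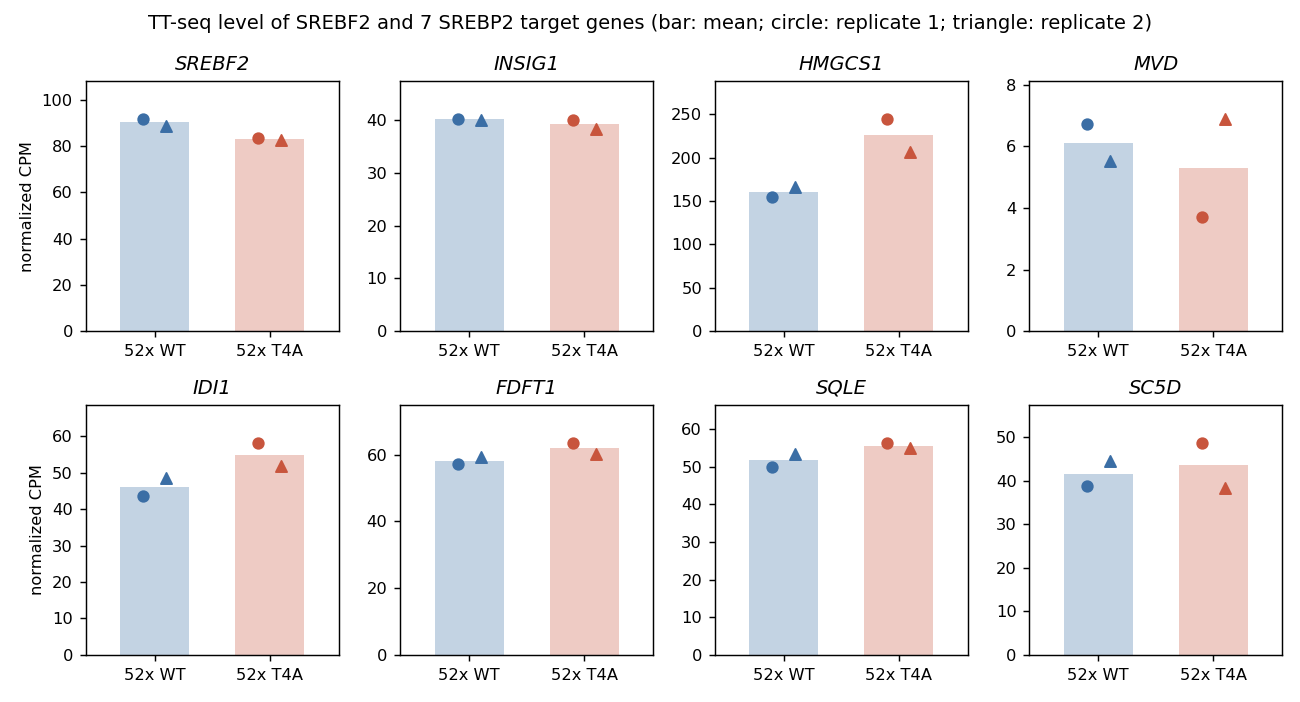
Normalised read count (CPM, linear axis from 0, a separate scale for each gene) of the 8 genes in the 2 WT and 2 T4A libraries, with bars for the condition means, circles for replicate 1 and triangles for replicate 2. HMGCS1 has the highest points in T4A (206.7 and 244.2 CPM), and T4A replicate 1 of MVD (3.69 CPM) lies below its other libraries.

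Set per kilobase of gene span, which counts introns as well as exons, the WT mean levels ran from HMGCS1 at 6.16 CPM per kb through IDI1 at 4.62, INSIG1 at 3.22, SQLE at 2.18, SC5D at 2.01, FDFT1 at 1.33 and SREBF2 at 1.22 down to MVD at 0.546 CPM per kb. SQLE and SC5D were the only neighbours in this order whose ranges over the 4 libraries overlapped. The T4A means stood in the same order, from 8.66 CPM per kb for HMGCS1 to 0.471 CPM per kb for MVD. Exons made up between 10.8% and 48.5% of a member's span, lowest in SREBF2, so introns made up most of every counted span.

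SREBF2 (ENSG00000198911, chr22:41833079-41907307, plus strand) encodes the pathway's transcription factor and hosts MIR33A in an intron. It had 91.6 and 88.8 CPM in WT replicates 1 and 2 and 83.6 and 82.8 CPM in T4A replicates 1 and 2. Both T4A libraries were below both WT libraries, and the 2 libraries of a condition lay closer to each other than to the other condition. The means were 90.2 ± 1.98 CPM in WT and 83.2 ± 0.536 CPM in T4A (SD, n = 2 each), a log2 difference of -0.12 (SE 0.08, 95% interval -0.31 to 0.07, edgeR adjusted p = 0.522). The microRNA gene MIR33A was listed at 0 in all 4 libraries. It lies inside SREBF2 on the same strand, and all 1120 lncRNA genes so placed within a gene of at least 1000 counts were also listed at 0, so the table does not measure it.

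INSIG1 (ENSG00000186480, chr7:155297776-155310235, plus strand), which encodes the sterol-regulated protein that holds SCAP in the endoplasmic reticulum and is itself an SREBP target, was nearly level. It had 40.2 and 40.1 CPM in the WT libraries and 40.0 and 38.4 CPM in the T4A libraries. The T4A libraries were both the lower ones, but T4A replicate 1 lay closer to the WT libraries than to T4A replicate 2. The log2 difference was -0.04 (SE 0.10, 95% interval -0.26 to 0.19, edgeR adjusted p = 0.879), with means of 40.2 ± 0.0404 and 39.2 ± 1.19 CPM (SD, n = 2). Its sign turned under other scalings, to 0.02 with plain library size and 0.04 with upper-quartile factors. The medians of all genes tested were 0.05 and 0.08 in these fits, so INSIG1 stayed below the median.

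The mevalonate part of the pathway was represented by 3 genes. HMGCS1 (ENSG00000112972, chr5:43287470-43313512, minus strand) encodes the cytosolic HMG-CoA synthase, an early enzyme of the pathway. It had 155.0 and 165.9 CPM in WT and 244.2 and 206.7 CPM in T4A. Both T4A libraries lay well above both WT libraries, and T4A replicate 1 was the higher of the pair. The means were 160.5 ± 7.72 CPM in WT and 225.4 ± 26.5 CPM in T4A (SD, n = 2), a log2 difference of 0.49 (SE 0.11) or 1.41-fold with a 95% interval of 1.19 to 1.67. Its edgeR p was 0.00158 and its adjusted p 0.183, and 196 of the genes tested had a smaller adjusted p.

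The direction for HMGCS1 was the same in every alternative fit, between 0.37 and 0.57 in log2 with all 4 libraries, while the adjusted p depended strongly on the method. It was 0.000696 in DESeq2 and 0.00682 in edgeR with each library's trend on GC content removed, in both at a fold below 1.5. It reached 0.446 in edgeR with scaling to mitochondrially encoded genes. The share of all genes with an adjusted p below 0.05 at any fold in these fits is not given here. Without T4A replicate 2 the gene passed the call (log2 difference 0.59, edgeR adjusted p = 1.23e-05), and without T4A replicate 1 it did not (0.37, edgeR adjusted p = 0.150). Without WT replicate 1 or WT replicate 2 the log2 difference was 0.43 and 0.52, with an edgeR adjusted p of 0.535 and 0.585. In the fit without T4A replicate 2, 9.96% of all genes tested were called, and the lone T4A library there is assumed to vary as the WT libraries do.

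MVD (ENSG00000167508, chr16:88651935-88663161, minus strand), encoding mevalonate diphosphate decarboxylase, was the lowest of the 8 and the least even. It had 263 and 244 counts in WT and 124 and 238 counts in T4A, or 6.72, 5.54, 3.69 and 6.88 CPM in the same order. T4A replicate 1 was the lowest library and T4A replicate 2 the highest, 1.86 times T4A replicate 1, with both WT libraries between them. The log2 difference was -0.21 (SE 0.29, 95% interval -0.87 to 0.45, edgeR adjusted p = 0.744). It was -0.74 without T4A replicate 2 (edgeR adjusted p = 0.0139) and turned to 0.18 without T4A replicate 1 (edgeR adjusted p = 0.741), so 1 library set its sign. RNF166 lay 33337 bp upstream of MVD on its strand, the nearest protein-coding gene there with a mean count of at least 50. It had 4.88 and 5.38 CPM in WT and 2.38 and 5.26 CPM in T4A. It shared the low value of T4A replicate 1 with MVD, while its T4A replicate 2 lay between the WT libraries. The span of RNF166 has 62.6% GC. Its log2 difference was -0.42, and -0.09 with the trend on GC content removed. A link between the 2 genes was not tested.

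IDI1 (ENSG00000067064, chr10:1039152-1049119, minus strand) encodes the isomerase that interconverts the basic isoprenoid building blocks. It had 43.7 and 48.4 CPM in WT and 58.2 and 51.8 CPM in T4A. As for HMGCS1, both T4A libraries were above both WT libraries and T4A replicate 1 was the highest of the 4. The means were 46.0 ± 3.36 CPM and 55.0 ± 4.53 CPM (SD, n = 2), a log2 difference of 0.26 (SE 0.11, edgeR adjusted p = 0.307) or 1.19-fold with a 95% interval of 1.01 to 1.41. The difference was between 0.15 and 0.33 in log2 in the alternative fits with all 4 libraries. IDI2-AS1, a lncRNA gene on the other strand that shares 6274 bp with IDI1, had 6.87 to 7.31 CPM in WT and 7.61 to 7.92 CPM in T4A.

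**Figure D2:**
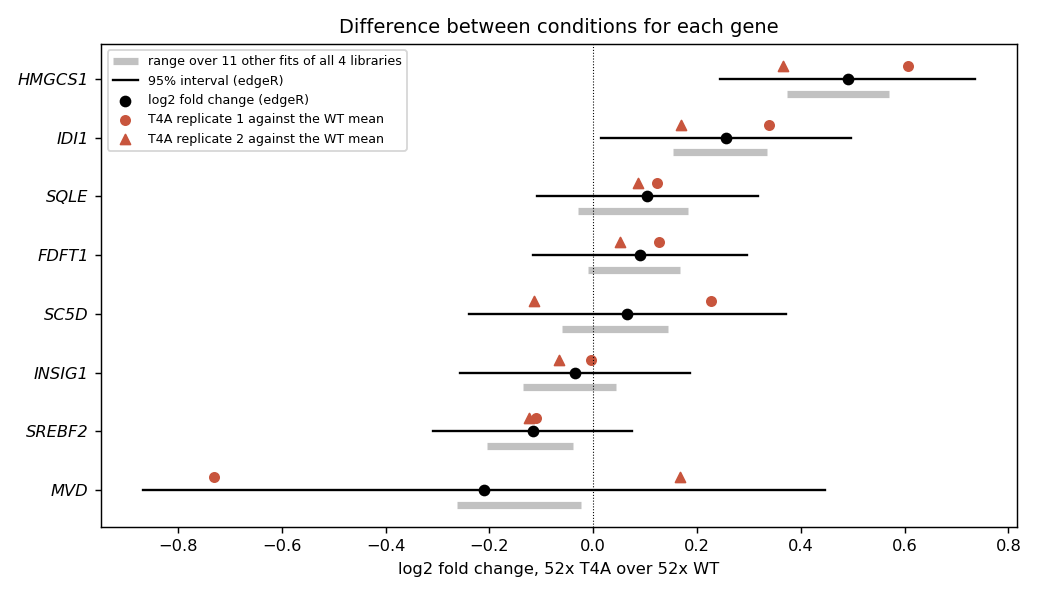
Log2 fold change of 52x T4A over 52x WT for each of the 8 genes, with the edgeR estimate and its 95% interval in black, the range of the estimate over 11 alternative fits of all 4 libraries in grey, and each T4A library against the WT mean in red. Only the intervals of HMGCS1 and IDI1 lie wholly above 0, and the T4A libraries of MVD lie on either side of 0.

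The last 3 genes belong to the squalene and sterol steps. FDFT1 (ENSG00000079459), squalene synthase, the first enzyme committed to sterols, had 57.2 and 59.3 CPM in WT and 63.5 and 60.3 CPM in T4A. SQLE (ENSG00000104549), squalene epoxidase, a rate-limiting enzyme of the sterol steps, had 50.0 and 53.5 CPM in WT and 56.4 and 55.0 CPM in T4A. For both genes the T4A libraries were above the WT libraries by a narrow margin. The log2 differences were 0.09 for FDFT1 (SE 0.09, 95% interval -0.12 to 0.30, edgeR adjusted p = 0.649) and 0.10 for SQLE (SE 0.09, 95% interval -0.11 to 0.32, edgeR adjusted p = 0.607). With the trend on GC content removed both turned just below 0, to -0.01 and -0.03. The median of all genes tested was -0.07 in that fit, below both.

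SC5D (ENSG00000109929, chr11:121292681-121313410, plus strand), the sterol-C5-desaturase near the end of the pathway, had 38.7 and 44.4 CPM in WT and 48.7 and 38.4 CPM in T4A. The T4A libraries were the highest and the lowest of the 4, so the groups overlapped fully. Its log2 difference of 0.07 (SE 0.13, 95% interval -0.24 to 0.37, edgeR adjusted p = 0.831) turned to -0.11 without T4A replicate 1 and to -0.04 without WT replicate 1.

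Summed over the 8 genes, the level was 483.1 and 506.0 CPM in WT and 598.3 and 540.2 CPM in T4A. HMGCS1 alone took 32.1% and 32.8% of that sum in WT and 40.8% and 38.3% in T4A. Without it the other 7 summed to 328.1 and 340.1 CPM in WT and 354.1 and 333.5 CPM in T4A, and the 2 conditions overlapped. HMGCS1 stood at 1.69 and 1.87 times the CPM of SREBF2 in WT and at 2.92 and 2.50 times in T4A, while INSIG1 stood at 0.439 and 0.452 times in WT and 0.479 and 0.463 times in T4A. The median log2 difference of the 8 genes was 0.08, beside -0.00076 for all genes tested. With the trend on GC content removed these medians were -0.03 and -0.07.

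The libraries of a condition differed in a way that followed base composition. Across 23162 tested genes the log2 difference of T4A replicate 1 minus T4A replicate 2 had a Spearman correlation of -0.456 with the GC content of the gene span, as a description over genes, which are not independent replicates. The same correlation was 0.290 for WT replicate 1 minus WT replicate 2 and -0.176 for the difference of T4A from WT. The median of T4A replicate 1 minus T4A replicate 2 was 0.12 in the decile of genes with the lowest GC content and -0.78 in the decile with the highest. The members ran from 37.6% GC in SQLE to 59.3% GC in MVD, and the median of the genes tested was 44.3%. MVD, the richest in GC, had a replicate difference of -0.89 and lay near the median of its decile. The others were between 0.01 for SREBF2 and 0.34 for SC5D, and in 7 of the 8 genes T4A replicate 1 was above T4A replicate 2. HMGCS1, at 38.8% GC, had 0.24. The gap between the T4A libraries was wider than that between the WT libraries in 6 of the 8 genes. With the trend on GC content removed, the log2 difference between conditions was 0.37 for HMGCS1, 0.15 for IDI1, -0.20 for SREBF2, -0.13 for INSIG1 and -0.02 for MVD. The median of all genes tested was -0.07 in that fit.

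**Figure D3:**
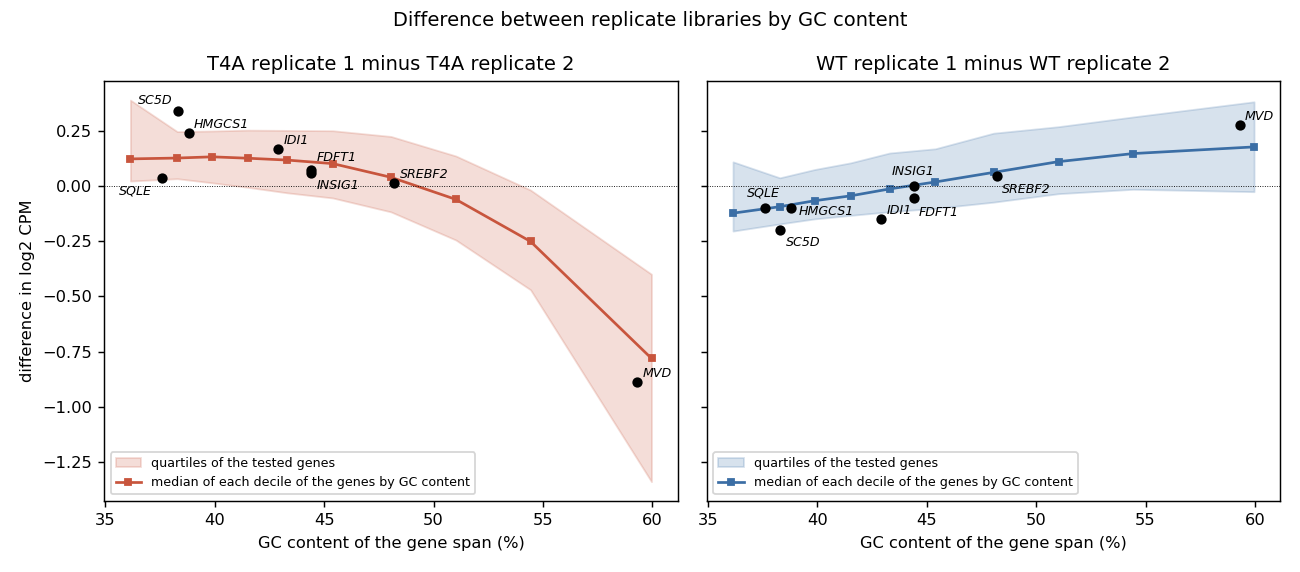
Difference in log2 CPM between the 2 replicate libraries of T4A (left) and of WT (right) against the GC content of the gene span, with the median of each decile of the tested genes as a line, the range between the quartiles as a band and the 8 members as points. MVD, at 59.3% GC, follows the falling line in T4A (-0.89), while members below 45% GC lie above 0.

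The other genes of sterol metabolism were read from lists of symbols. None of the 48 genes tested in 5 further lists passed the call in the edgeR test used throughout or in DESeq2, and the alternatives that called INSIG2, FASN or TM7SF2 are given with those genes. In edgeR 8 of the 48 had an unadjusted p below 0.05, against 15.5% of all genes tested. By direction the share of all genes tested was 7.45% higher and 8.02% lower, for comparison with the counts of each list. Of 15 other cholesterol synthesis enzymes 13 were tested and 0 had an unadjusted p below 0.05 in either direction. Both T4A libraries were above both WT libraries for 3 and below for 3 of them, and the median log2 difference was -0.05. The enzymes of this list with the smallest p among those whose groups did not overlap were HSD17B7, a 3-ketosteroid reductase (-0.25), FDPS, farnesyl diphosphate synthase (0.18), and ACAT2, which condenses acetyl-CoA at the start of the pathway (0.19). TM7SF2, a sterol reductase, passed the call without T4A replicate 2 (-0.74). The share of all genes called in that fit is given with HMGCS1. TM7SF2 was at -0.26 with all 4 libraries, 0.11 without T4A replicate 1 and -0.01 with the trend on GC content removed. Its span has 60.2% GC. It had 7.59 and 6.22 CPM in WT and 4.17 and 7.375 CPM in T4A, so T4A replicate 1 alone was low. EBP was listed at 0 and CYP51A1 at 0 or 1 counts, and at least 99.9% of each span was shared with other genes of the same strand, so both were unmeasured.

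Of 11 genes of SREBP processing, sterol uptake and transport, 10 were tested, with 0 higher and 3 lower at an unadjusted p below 0.05. The shares of all genes tested were 7.45% and 8.02%. The median log2 difference was -0.10. Both T4A libraries were above both WT libraries for 2 and below for 5 of the 10, against 24.8% and 24.7% of all genes tested. The list also holds MBTPS1, the site-1 protease, whose log2 difference was -0.11 (SE 0.09, edgeR adjusted p = 0.568). The members SREBF2 (-0.12) and INSIG1 (-0.04) of the same machinery had values given above. INSIG2, the relative of INSIG1 that is not an SREBP target, had 11.3 and 13.9 CPM in WT and 8.88 and 8.19 CPM in T4A. Its log2 difference was -0.56 (SE 0.17, edgeR adjusted p = 0.235). SCAP, the escort of SREBP2, had 73.6 and 69.0 CPM in WT and 58.2 and 60.0 CPM in T4A (log2 difference -0.27, SE 0.09, edgeR adjusted p = 0.251).

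MBTPS2, the site-2 protease, had 92.5 and 101.9 CPM in WT and 80.2 and 84.0 CPM in T4A (log2 difference -0.24, SE 0.09, edgeR adjusted p = 0.276). All 3 were lower in both T4A libraries than in either WT library, and none passed the adjustment. With the trend on GC content removed, INSIG2 passed the call (-0.69, edgeR adjusted p = 0.00993), and SCAP (-0.36) and MBTPS2 (-0.36) had an adjusted p of 0.0199 and 0.0301 at a fold below 1.5. In that fit 2.29% of all genes tested were called, a share that includes the limit on the fold. The share of all genes with an adjusted p below 0.05 at any fold is not given here. So these adjusted p-values have no matching share beside them. That fit also gave genes outside this list an edgeR adjusted p below 0.05 at a fold below 1.5. These included HMGCS1, as given above, ME1 (-0.56), ACACA (-0.37), LPCAT3 (-0.33), PDSS1 (-0.38), PDSS2 (-0.29) and POLR2A (-0.31).

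**Figure D4:**
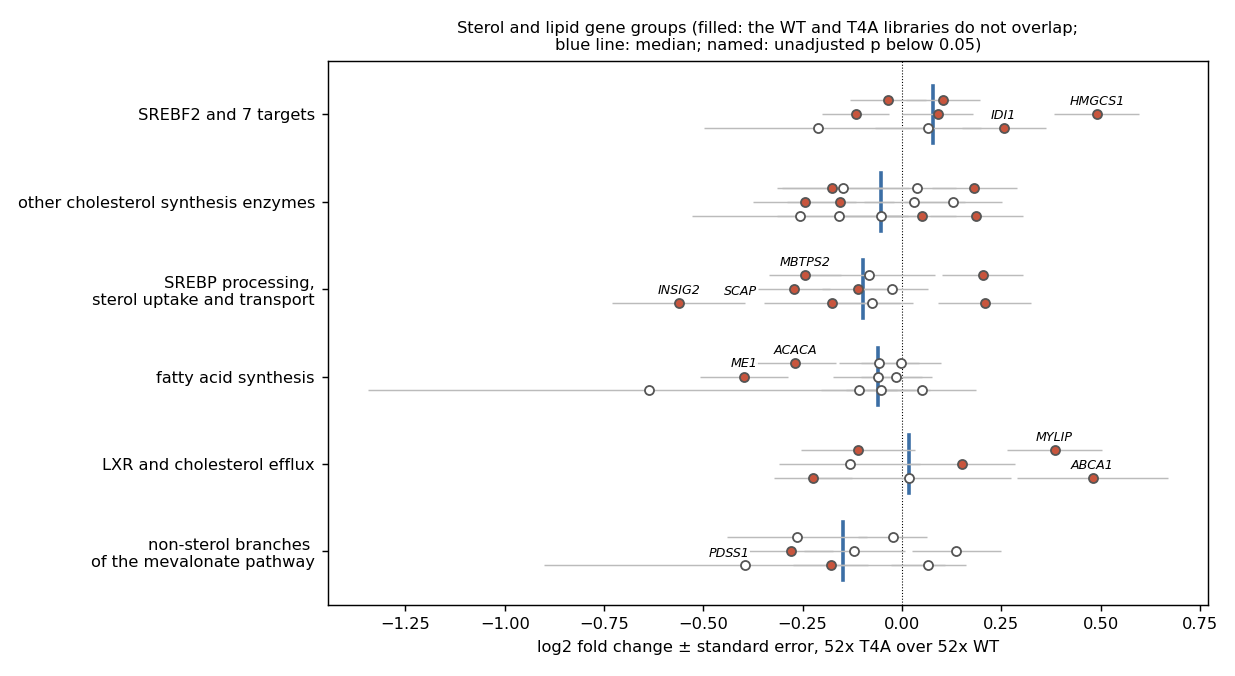
Log2 fold change of 52x T4A over 52x WT with its standard error for each tested gene of the SREBP2 members and 5 further lists, filled where the WT and T4A libraries do not overlap, with a line at each list's median. HMGCS1 and IDI1 lie to the right among the members, INSIG2, SCAP and MBTPS2 to the left among the SREBP processing and sterol transport genes.

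Fatty acid synthesis, which is driven more by SREBP1, had 10 of 10 genes tested, with 0 higher and 2 lower at an unadjusted p below 0.05 and a median log2 difference of -0.06. These were ME1, the cytosolic malic enzyme that yields NADPH (-0.40, SE 0.11, edgeR adjusted p = 0.221), and ACACA, acetyl-CoA carboxylase (-0.27, SE 0.10, edgeR adjusted p = 0.282). DESeq2 gave both an adjusted p below 0.05 at a fold below 1.5. In DESeq2 0.403% of all genes tested passed the call with its limit on the fold. The share below 0.05 at any fold is not given here. FASN, fatty acid synthase, had 111.0 and 90.3 CPM in WT and 12.6 and 116.6 CPM in T4A, so that T4A replicate 1 alone was low, and its span has 66.7% GC. Its log2 difference was -0.64 (edgeR adjusted p = 0.681), and -0.43 with the trend on GC content removed. A link of the low library to GC content was not tested. FASN passed the call in edgeR with the replicate block (-1.32, adjusted p = 1.81e-11) and without T4A replicate 2 (-3.01), and it turned to 0.22 without T4A replicate 1.

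Genes of LXR and cholesterol efflux, which respond to sterol excess, had 7 of 7 tested, with 2 higher and 0 lower at an unadjusted p below 0.05 and a median log2 difference of 0.02. MYLIP, a ubiquitin ligase induced by LXR, had 111.0 and 128.6 CPM in WT and 171.3 and 141.4 CPM in T4A (log2 difference 0.38, SE 0.12, edgeR adjusted p = 0.241). ABCA1, the cholesterol exporter, had 5.21 and 5.94 CPM in WT and 7.03 and 8.53 CPM in T4A (0.48, SE 0.19, edgeR adjusted p = 0.296). LPCAT3, a phospholipid acyltransferase, came next by p among the genes whose groups did not overlap, at -0.22 (SE 0.10, edgeR adjusted p = 0.325).

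The non-sterol branches of the mevalonate pathway, which lead to ubiquinone, dolichol and prenylated proteins, had 8 of 9 genes tested, with 0 higher and 1 lower at an unadjusted p below 0.05 and a median log2 difference of -0.15. Of these, FNTA and FNTB share 83.6% and 98.9% of their spans with other genes of the same strand, so only the rest was counted. FNTA still had 454 to 891 counts, while FNTB had 13 to 34. The median of the other 6 was -0.07. The 1 gene was PDSS1 (-0.28, SE 0.11, edgeR adjusted p = 0.284), which with PDSS2 (-0.18, SE 0.09, edgeR adjusted p = 0.392) forms the enzyme that makes the side chain of ubiquinone. Both genes were lower in each T4A library than in either WT library.

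The mean profile of the 8 members over the 4 libraries, as log2 CPM less each gene's own mean, was -0.05 and -0.02 in WT and 0.04 and 0.03 in T4A. The 3 protein-coding genes outside the members closest to it by Euclidean distance over these 4 values were ANKUB1 at 0.00917, SETD7 at 0.0111 and CHCT1 at 0.0112. Every member lay farther from this mean, from 0.0534 for FDFT1 to 0.752 for MVD.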

How the data were processed

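Raw counts per gene of 4 TT-seq libraries, made as dUTP strand-specific cDNA, were deposited by the authors as 1 table. The submitters' processing notes name FastQC, cutadapt 4.6, STAR 2.7.11b, Picard, deepTools 3.5.6 and GRCh38. The counting options are not given in the sources used here. For all 60708 genes the listed length equals the gene span, so introns were counted. Of 2978 lncRNA genes inside a gene of the other strand only, 14.2% were listed at 0, against all of those on the same strand, so strand was used and shared reads on 1 strand were dropped.

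Symbols came from GENCODE by stable identifier (58700 matched), and coordinates are those of the table, whose protein-coding genes overlapped their RefSeq GRCh38.p14 positions in 99.979% of 19041 cases. GC content came from the GRCh37 span of the same identifier. Counts were tested with edgeR 4.0.16 in R 4.3.3 (TMM, default filter on low counts, quasi-likelihood test, Benjamini-Hochberg adjustment over all genes tested), with DESeq2 1.42.0 as an alternative. CPM values are TMM-normalised unless a library total is named. Standard errors were derived from the F statistic. The scripts were tested on simulated data. Other alternatives were scalings, filters, the replicate block, trends on gene span and GC content, and leaving out each library.

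The labels do not say whether the replicate numbers pair a WT with a T4A library, and the main fit used no pairing. Deviations of WT and T4A replicate 1 from their condition means correlated at 0.00498, which cannot decide it. Replicate differences followed GC content in opposite directions in T4A and WT (Spearman correlations -0.456 and 0.290), which could hide a shared part.

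Named genes are all members, POLR2A, genes called, up to 3 genes a list with the smallest p and groups that did not overlap, neighbours on which a result turned, and the 3 genes of closest profile. FASN, TM7SF2, MBTPS1, FNTA, FNTB, EBP and CYP51A1 were named after their values were seen. Markers were lists of 2 to 7 genes, and PECAM1 matched no symbol. Some genes of these lists are not reported here. The members and lists were chosen with earlier results of these data known.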

Additional observations from a re-analysis of the deposited data

How the results depend on the processing

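Only 2 libraries stood behind each mean, and members had 124 to 8197 counts, so small differences could go uncalled. Even HMGCS1 (1.41-fold) and IDI1 (1.19-fold), with intervals wholly above the WT level, did not pass the adjustment. Over all genes, 1 gene was called. The count was 195 (108 higher, 87 lower) with scaling to mitochondrially encoded genes, 65 (25 and 40) without the filter on low counts, 94 (47 and 47) in DESeq2, 22 (5 and 17) with the trend on gene span removed and 534 (241 and 293) with the trend on GC content removed, an alternative chosen after seeing the data. The replicate block gave 433 calls (177 higher, 256 lower), and with it 0 members were called. Leaving out 1 library gave 0 to 2500 calls: 3 without WT replicate 1, 0 without WT replicate 2 (CHST8 at 1.07, edgeR adjusted p = 0.585), 195 without T4A replicate 1 and 2500 without T4A replicate 2. Members called were 0 to 2 when 1 library was left out, the 2 being HMGCS1 and MVD without T4A replicate 2, and 2 (HMGCS1 and IDI1) at an unadjusted p below 0.05. They were 0 in the 11 alternative fits with all 4 libraries. The median of the members, 0.08, was 0.13 with plain library size, 0.16 with upper-quartile factors, 0.00196 with the trend on gene span removed and -0.026 with the trend on GC content removed, where the medians of all genes were 0.05, 0.08, -0.06 and -0.07. It was 0.0015 to 0.12 when 1 library was left out. Of 120 values of single members, 8 changed sign: INSIG1 to 0.015 (library size) and 0.043 (upper quartile), SC5D to -0.061 (GC content) and between -0.11 and 0.21 when 1 library was left out, MVD between -0.74 and 0.18 likewise, FDFT1 to -0.011 and SQLE to -0.029 (GC content). Of 374 values of 25 other genes named with a difference, 10 did: ANKUB1 to -0.049 (gene span) and -0.088 (GC content), SETD7 to -0.014 and -0.021, CHCT1 to -0.022 and -0.031 (the same alternatives), and, over the fits that left out 1 library, FASN between -3.01 and 0.22, RNF166 between -1.12 and 0.043, TM7SF2 between -0.74 and 0.11 and FNTB between -0.73 and 0.013. In the further lists the replicate block called FASN, removing the trend on GC content called INSIG2, and leaving out T4A replicate 2 called FASN and TM7SF2. Leaving out FNTA and FNTB, also chosen after seeing the data, took their list median from -0.15 to -0.07. The cause of these changes was not tested. Among the medians of the 5 further lists, 26 of 75 moved by more than the spread between replicates.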
